A study of Drosophila melanogaster with 5 samples.

Results

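The Hippo pathway genes of the fly flight muscle were examined after RNAi against M1BP. The group was set by a list of 10 symbols, yki, hpo, wts, sav, mats, sd, Dlg5, Slmap, Mer and kibra, looked up in the gene table and joined to the exon counts by FlyBase identifier, and all 10 were found among 17494 genes. The RNA came from indirect flight muscles taken by hand out of pupae of Drosophila melanogaster 48 h after puparium formation (APF), in M1BP RNAi muscles (replicates 2 and 3, n = 2) and in WT muscles (replicates 1, 2 and 3, n = 3). M1BP (Motif-1 binding protein) recognises a promoter element common among housekeeping genes and regulates their transcription, and the comparison asked which transcripts change when it is depleted during muscle development. Pupae of both groups carried the Mef2-GAL4 driver and were kept at 25 °C. The M1BP RNAi group also carried a UAS-M1BP RNAi transgene, which per the methods of the study was a single line, the weaker of a pair, whereas the WT group carried the driver without it. Mef2-GAL4 is active through all myogenic stages, so the RNAi was not limited to 48 h APF, and the muscles of 6 to 8 pupae were pooled in each library. The labels did not say whether replicates came from separate crosses or gave the sex of the pupae, so p-values measure only the spread between these libraries.

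The Hippo pathway is a growth control pathway. A core of the kinases Hippo and Warts with their adaptors Salvador and Mats keeps the co-activator Yorkie out of the nucleus, and Yorkie that enters the nucleus activates genes together with the DNA-binding protein Scalloped. In flight muscle Yorkie and Scalloped are known to promote the expression of sarcomere genes and the growth of the muscle fibre, and the scaffold Dlg5 and the STRIPAK phosphatase complex with Slmap are known to act there by restraining Hippo. Much of this control runs through phosphorylation and protein location, which RNA counts do not measure.

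Libraries held 57514444 and 46504821 counts in M1BP RNAi and 41676901 to 53556469 counts in WT. M1BP had 410 and 456 normalised counts (counts scaled by DESeq2's size factors) in M1BP RNAi, against 666, 673 and 642 in WT. Its log2 fold change was −0.61 (SE 0.136, adjusted p = 1.04e-04 with the Wald test of DESeq2), and the call was lost in each of the 5 fits that left out 1 library (adjusted p from 0.0135 to 0.181). The 8 flight muscle markers, among them Act88F and fln, summed to 1757317 and 2078435 normalised counts in M1BP RNAi, against 1912829 to 2681905 in WT, so the labelled tissue was present in every library. One library stood apart: M1BP RNAi replicate 2 held 3327 normalised counts over 10 testis markers, against 110 in M1BP RNAi replicate 3 and 17.9 to 60.7 in WT, while the spermatocyte regulators aly, comr, can and sa were at 0 to 9.50 in every library.

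No Hippo pathway gene passed the test for a change. Calls needed both an adjusted p no larger than 0.001 and a difference of 1.5-fold or more, as in the methods of the study, and 0 of 10 members were called with DESeq2, where 6.75% of the 11282 genes tested were called. All 10 members were among the genes tested, with 505 to 5267 raw counts per gene and library. With edgeR's quasi-likelihood test 0 members were called, but that test called only 8 genes in all (0.0814% of those it tested). In DESeq2 1 member, wts, had an unadjusted p under 0.05, where 35.7% of all genes did. At an adjusted p of at most 0.05 with no minimum fold change, 0 of 10 members passed, where 24.4% of all genes did. The median of the members' log2 fold changes was −0.02 and the median of their sizes without sign was 0.19, beside 0.02 and 0.38 over all genes tested. In these bulk samples, fewer cells of a type and less RNA per cell cannot be told apart.

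**Figure D1:**
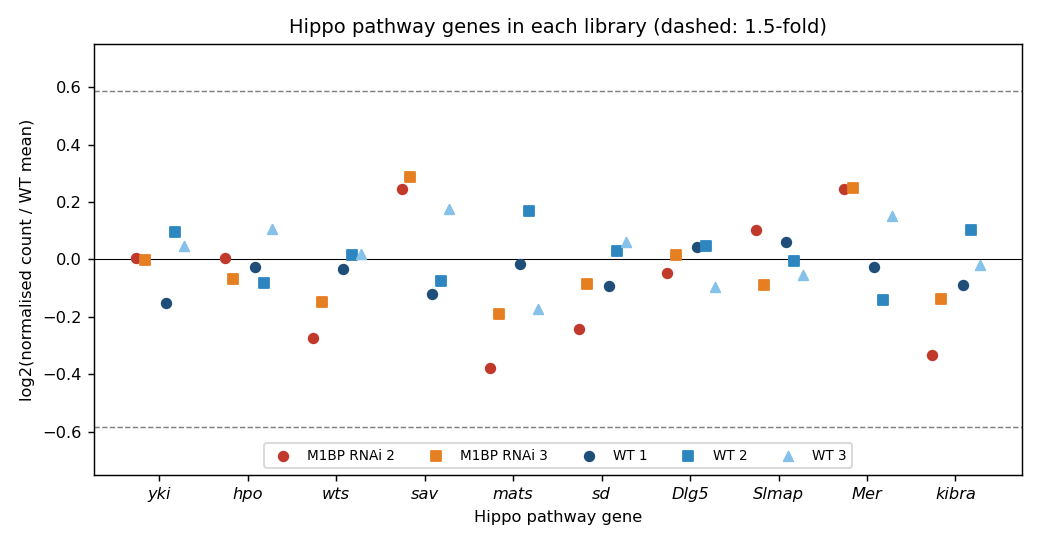
Normalised count of each Hippo pathway gene in each library, as the log2 ratio to the WT mean of that gene (y axis), with M1BP RNAi libraries left of WT libraries for each gene (x axis). Every point lies inside the dashed lines at a 1.5-fold difference, and the M1BP RNAi points lie below all WT points for wts, mats and kibra and above them for sav and Mer.

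The core kinase cassette was described first. hpo (FBgn0261456, chromosome 2R, 19493996 to 19496856 in dm6) encodes the kinase that starts the cascade. It had 3785 and 3598 normalised counts in M1BP RNAi, against 3696, 3557 and 4053 in WT. The groups overlapped, and the log2 fold change was −0.03 (SE 0.102, 95% interval −0.23 to 0.17, DESeq2 adjusted p = 0.870).

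sav (FBgn0053193, 3R, 23058609 to 23061304) encodes the scaffold that joins Hippo to Warts. Its normalised counts were 2446 and 2518 in M1BP RNAi, against 1900, 1959 and 2334 in WT, so both M1BP RNAi libraries lay above all WT libraries. The log2 fold change of 0.27 (SE 0.139, interval −0.01 to 0.54) did not pass (DESeq2 adjusted p = 0.153), and it was 0.36 with an adjusted p of 0.00972 without WT replicate 3, the highest WT library, still short of a 1.5-fold difference. The other 4 fits that left out 1 library gave 0.21 to 0.30, with adjusted p from 0.463 to 0.561.

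wts (FBgn0011739, 3R, 30789625 to 30806619) encodes the kinase that phosphorylates Yorkie. It had 1696 and 1850 normalised counts in M1BP RNAi, against 2004, 2074 and 2076 in WT. WT libraries were close to each other for this gene, with a coefficient of variation of 1.98%, and both M1BP RNAi libraries were lower. The log2 fold change was −0.21 (SE 0.0927, interval −0.39 to −0.03), with an unadjusted p of 0.0225 and a DESeq2 adjusted p of 0.0786 over all genes. Leaving out each library in turn gave −0.27 to −0.14, the value nearest 0 being that without M1BP RNAi replicate 2.

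mats (FBgn0038965, 3R, 22421161 to 22423302) encodes the small co-activator of Warts and was the least counted member. It had 466 and 531 normalised counts in M1BP RNAi, against 600, 681 and 538 in WT. The highest M1BP RNAi value was just under the lowest WT value, and the log2 fold change was −0.28 (SE 0.187, DESeq2 adjusted p = 0.276). Its interval, −0.65 to 0.08, was the widest among the members and the only one to reach past a 1.5-fold difference, so a decrease of that size was not excluded for mats. Without M1BP RNAi replicate 2 the log2 fold change was −0.18.

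The nuclear effectors were yki and sd. yki (FBgn0034970, 2R, 24065975 to 24068485), the co-activator on which the cascade acts, had 1334 and 1329 normalised counts in M1BP RNAi, against 1198, 1420 and 1372 in WT. The M1BP RNAi libraries fell within the WT range. Means were 1332 ± 3.28 in M1BP RNAi (SD, n = 2) and 1330 ± 117 in WT (SD, n = 3). The log2 fold change was 0.00 (SE 0.129, interval −0.25 to 0.26, DESeq2 adjusted p = 0.994).

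sd (FBgn0003345, X, 15804370 to 15827682) encodes the TEAD-family DNA-binding partner of Yorkie. It had 3811 and 4256 normalised counts in M1BP RNAi, against 4237, 4601 and 4702 in WT. M1BP RNAi replicate 2 was below every WT library and replicate 3 was within their range, with a log2 fold change of −0.16 (SE 0.106, interval −0.37 to 0.04, DESeq2 adjusted p = 0.264) that was −0.073 without replicate 2. The supplied annotation lists 22 transcripts from 7 start sites for sd, and counts per gene do not tell them apart.

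Mer and kibra act upstream at the cell cortex. Mer (FBgn0086384, X, 19689697 to 19693500), the fly Merlin, a FERM-domain protein that promotes activation of Warts, had 3848 and 3855 normalised counts in M1BP RNAi, against 3188, 2938 and 3604 in WT. Both M1BP RNAi libraries were above all WT libraries, and the log2 fold change was 0.25 (SE 0.127, interval −0.00 to 0.50, DESeq2 adjusted p = 0.142). As with sav, WT replicate 3 was the highest WT library, and without it the log2 fold change was 0.33 (adjusted p = 0.0165). The other fits that left out 1 library gave 0.17 to 0.26, with adjusted p from 0.396 to 0.609.

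kibra (FBgn0262127, 3R, 14697689 to 14724261), a WW-domain scaffold that works with Merlin, had 2274 and 2604 normalised counts in M1BP RNAi, against 2690, 3075 and 2827 in WT. Here both M1BP RNAi libraries were below all WT libraries, opposite in direction to Mer. The log2 fold change was −0.23 (SE 0.124, interval −0.48 to 0.01, DESeq2 adjusted p = 0.162), and it was −0.13 without M1BP RNAi replicate 2.

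Mer and sd are X-linked, and lncRNA:roX1, an RNA of the male dosage compensation complex, differed among libraries, with 9618 and 5900 normalised counts in M1BP RNAi, against 14.4, 4994 and 1062 in WT. With lncRNA:roX1 as a covariate, Mer was at 0.27 (DESeq2 adjusted p = 0.512) and sd at −0.22 (adjusted p = 0.520). Both directions were the same as without it. lncRNA:roX1 was higher in both M1BP RNAi libraries than in every WT library, so this fit cannot fully separate it from the group.

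Slmap and Dlg5 restrain Hippo in this muscle. Slmap (FBgn0040011, 2L, 22579072 to 22585843) links the STRIPAK phosphatase to Hippo, and it had 2970 and 2603 normalised counts in M1BP RNAi, against 2881, 2753 and 2662 in WT. The M1BP RNAi libraries lay on either side of the WT range, and the log2 fold change was 0.01 (SE 0.109, interval −0.20 to 0.23, DESeq2 adjusted p = 0.955).

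Dlg5 (FBgn0032363, 2L, 11508399 to 11517081), a membrane-associated guanylate kinase that binds Slmap, had 2786 and 2904 normalised counts in M1BP RNAi, against 2966, 2972 and 2689 in WT. The M1BP RNAi libraries were within the WT range, with a log2 fold change of −0.02 (SE 0.0959, interval −0.20 to 0.17, DESeq2 adjusted p = 0.930). Its exons share 251 bases, 3.40% of its exon length, with the opposite-strand gene spz4, which averaged 241 normalised counts in M1BP RNAi and 624 in WT.

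Across the 10 genes, the libraries of the groups did not overlap for 5, with M1BP RNAi below WT for wts, mats and kibra and above it for sav and Mer. This share was near that of all genes, 48.9% of which did not overlap. A Wald test of whether the difference was smaller than 1.5-fold, added after these values had been seen, passed at an adjusted p of at most 0.05 for 9 of 10 members, all but mats (adjusted p = 0.152), and for 27.1% of all genes. That test depends on precision and so on the level of a gene, and on the libraries: it passed for 0 members without M1BP RNAi replicate 2, for 3 without M1BP RNAi replicate 3 and for 6 to 8 without 1 of the WT libraries. It passed for 1 member with lncRNA:roX1 as a covariate.

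**Figure D2:**
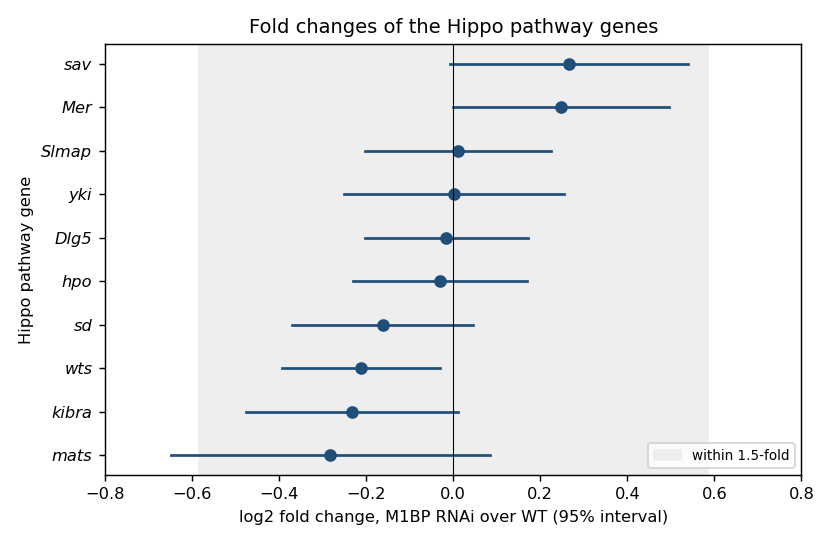
Log2 fold change of each Hippo pathway gene, M1BP RNAi over WT (x axis), with its 95% interval from the DESeq2 standard error, genes ordered by value (y axis) and the range within 1.5-fold shaded. The interval of mats, −0.65 to 0.08, leaves the shaded range, the interval of wts, −0.39 to −0.03, leaves out 0, and the other 8 include 0 and stay within it.

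Levels per exon length were compared as TPM, the count per exon length scaled to the same total in each library, calculated from the counts and exon lengths. In WT, hpo was the most abundant member at 42.5 ± 0.485 TPM (SD, n = 3), above 84.1% of the genes tested. A middle group held Mer at 30.1 ± 1.14 TPM, sav at 29.2 ± 1.34 TPM, yki at 27.7 ± 2.96 TPM and Slmap at 27.2 ± 2.76 TPM, and each overlapped the next in its range over WT libraries. sd at 16.3 ± 1.03 TPM and kibra at 15.8 ± 1.81 TPM followed, and Dlg5 at 12.4 ± 1.54 TPM, mats at 11.3 ± 2.05 TPM and wts at 11.2 ± 0.744 TPM were lowest, again with neighbours that overlapped. The WT ranges were separate between hpo and Mer, between Slmap and sd, and between kibra and Dlg5. The place of sd is uncertain, since its exon length of 8766 bases was the longest among the members and it has 22 annotated transcripts. Without division by length, its WT mean of 4513 normalised counts was above that of hpo, 3769. The core kinases thus stood at opposite ends of the order, hpo highest and wts, beside mats, lowest.

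In M1BP RNAi, hpo was again the most abundant, with 55.0 and 47.2 TPM, against 43.1, 42.3 and 42.2 TPM in WT. The order of the first 8 genes was the same in M1BP RNAi as in WT, and only mats and wts changed places. TPM values of M1BP RNAi were higher across the transcriptome, with a median log2 ratio to WT of 0.30 over 11166 genes, which is a shift of the scale shared by the members (median 0.27). The TPM values are therefore used for the order of genes within libraries and the normalised counts for the difference between groups.

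**Figure D3:**
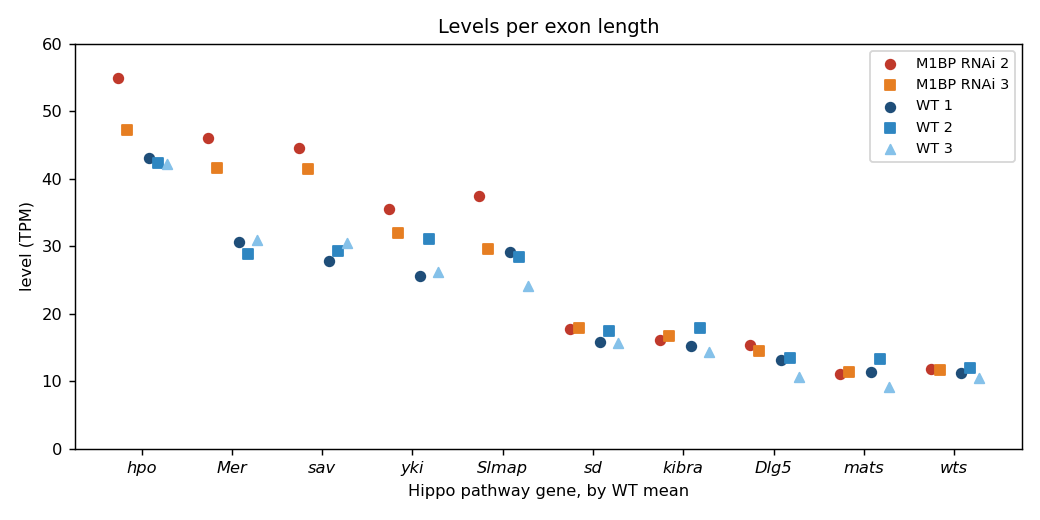
Level of each Hippo pathway gene in TPM in each library (y axis, starting at 0), with M1BP RNAi libraries left of WT libraries and genes ordered by WT mean (x axis). hpo is the highest in every library, and the 5 most abundant genes lie above the other 5 in both groups.

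Ratios of TPM within a library are free of that shift. The ratio of hpo to its scaffold sav was 1.23 and 1.14 in M1BP RNAi, against 1.55, 1.45 and 1.38 in WT. The ratio of yki to its kinase wts was 2.99 and 2.73 in M1BP RNAi, against 2.27, 2.61 and 2.52 in WT. The ratio of sd to yki was 0.497 and 0.557 in M1BP RNAi, against 0.615, 0.564 and 0.596 in WT. For these 3 of 5 ratios the libraries of the groups did not overlap, where 48.9% of single genes did not. The share over other gene pairs was not calculated, and no ratio was tested. The ratios were chosen after values were seen and share genes. Of the genes in these 3 ratios, sav and wts did not overlap by themselves, whereas hpo, sd and yki did overlap. The count of such ratios therefore cannot show whether the pathway shifted. The other two overlapped, the ratio of vg to sd at 3.24 and 2.59 in M1BP RNAi, against 2.55, 2.80 and 2.90 in WT, and that of wts to mats at 1.08 and 1.03 in M1BP RNAi, against 0.988, 0.901 and 1.14 in WT.

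The wider pathway was described through lists of genes by role, with the median log2 fold change of all genes tested, 0.02, and the share of genes called lower, 2.98%, as the background. Among 21 upstream regulators at membranes and junctions, 1 fell, 0 rose and 20 did not pass. The gene that fell was Zyx, which encodes the LIM-domain protein Zyxin, known in imaginal discs to promote growth downstream of the cadherin Fat. Zyx had 1593 and 1565 normalised counts in M1BP RNAi, against 3077, 3049 and 3275 in WT. At a log2 fold change of −0.99 (SE 0.0842, with an adjusted p of 1.36e-29 in DESeq2) it was called in all 5 fits that left out 1 library, from −1.02 to −0.96, and had an adjusted p of 0.00319 with edgeR. Zyx lies on chromosome 4 at 1057365 to 1065001.

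Other upstream genes did not reach the call. dco, which encodes casein kinase 1 and acts in Fat signalling, had 4483 and 4070 normalised counts in M1BP RNAi, against 5200, 5232 and 4953 in WT (log2 fold change −0.26, DESeq2 adjusted p = 0.0177). lft, a regulator of Fat and Dachsous levels, had 879 and 1079 in M1BP RNAi, against 1309, 1442 and 1284 in WT (log2 fold change −0.46, adjusted p = 0.0178, or −0.31 with an adjusted p of 0.502 without M1BP RNAi replicate 2). The cadherins ft and ds had log2 fold changes of −0.77 and −0.58 with DESeq2 adjusted p of 0.111 and 0.185.

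The list as a whole lay low, with 19 of 21 values below 0 and a median of −0.42. That median rested on 1 library, since its genes stood at a median log2 ratio to the WT mean of −0.61 in M1BP RNAi replicate 2 and −0.17 in replicate 3, and the median log2 fold change was −0.15 without replicate 2. The dip in M1BP RNAi replicate 2 was not particular to this list. In M1BP RNAi replicates 2 and 3, median log2 ratios were −0.36 and −0.16 for the partners and −0.56 and −0.10 for the growth targets. They were −0.43 and −0.17 for the sarcomere list and −0.10 and −0.06 for the kinase list. Summed fat body markers stood at 0.48 and 0.43 in M1BP RNAi, against 0.36, 0.15 and −0.72 in WT. Summed flight muscle markers stood at −0.41 and −0.17 in M1BP RNAi, against 0.04, −0.29 and 0.20 in WT. Epidermis, tendon and trachea markers were low as well. The 8 epidermis and tendon markers summed to 15345 and 20488 normalised counts in M1BP RNAi, against 21506 to 27289 in WT, and the 6 trachea markers to 53231 and 72206 in M1BP RNAi, against 78526 to 106875 in WT, with no marker at 0 in any library. These cell types express junction genes, and their part in the list's median was not tested.

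**Figure D4:**
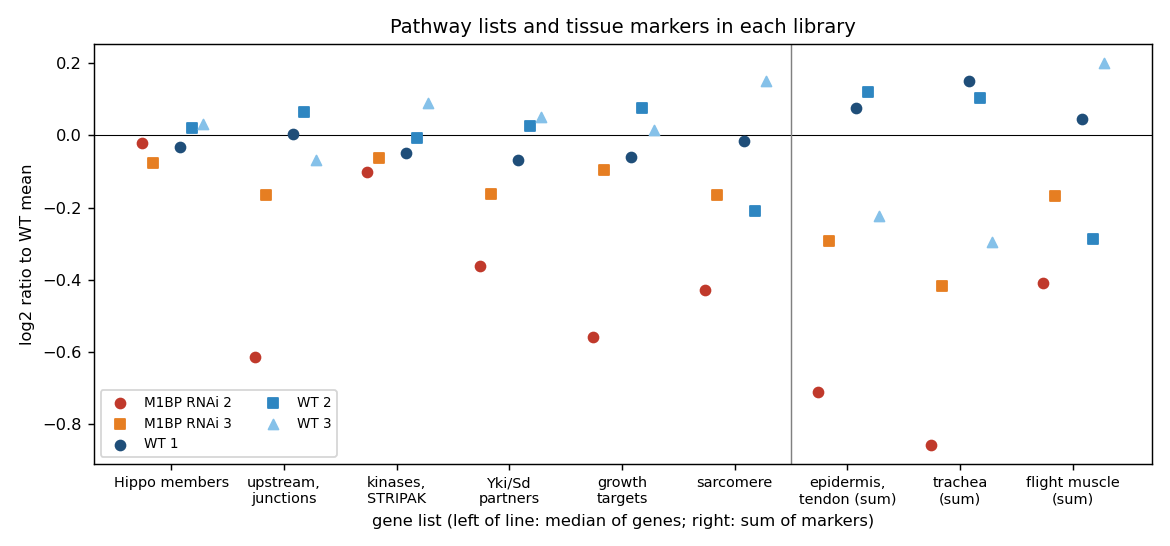
Log2 ratio to the WT mean (y axis) for each library, as the median over the genes of a pathway list (left of the line) and for the summed normalised counts of tissue markers (right of the line), with M1BP RNAi libraries left of WT libraries. The Hippo members stay near 0 in every library, whereas the upstream and junction list is at −0.61 in M1BP RNAi replicate 2 and −0.17 in replicate 3. The kinase, partner, growth target and sarcomere lists are also lowest in M1BP RNAi replicate 2. So are the marker sums of epidermis and tendon, of trachea and of flight muscle.

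None of the 14 kinases and STRIPAK subunits was called in DESeq2 or edgeR, and 1 had an unadjusted p under 0.05 in DESeq2, against 35.7% of all genes. Their median log2 fold change was −0.10. Cka, the STRIPAK scaffold of the striatin family, had 4641 and 4565 normalised counts in M1BP RNAi, against 5035, 5410 and 5274 in WT, and its log2 fold change of −0.19 (SE 0.0727) had a DESeq2 adjusted p of 0.0439. Pp2A-29B, the scaffold subunit of the phosphatase, had a log2 fold change of −0.20 (DESeq2 adjusted p = 0.147). Sik2, a salt-inducible kinase that phosphorylates Salvador, had 123 and 119 normalised counts in M1BP RNAi, against 45.4, 78.6 and 82.0 in WT. Both M1BP RNAi libraries were above WT for Sik2, and with few counts and a wide WT spread a log2 fold change of 0.82 (SE 0.421) did not pass (adjusted p = 0.143 with DESeq2). Sik2 is X-linked, and with lncRNA:roX1 as a covariate its value was 0.43 (adjusted p = 0.811). The kinase Tao, which phosphorylates Hippo, had 4772 and 5015 normalised counts in M1BP RNAi, against 4631, 4726 and 5096 in WT.

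No called gene was found among the 10 partners and cofactors of Yorkie and Scalloped, in DESeq2 or edgeR, and 4 had an unadjusted p under 0.05 in DESeq2, a share near the 35.7% of all genes. All 10 log2 fold changes were below 0, where 48.4% of all genes were, and they ran from −0.53 to −0.08 with a median of −0.22. For 7 of them the M1BP RNAi libraries lay below all WT libraries, as for 21.9% of all genes. The median was −0.15 without M1BP RNAi replicate 2. A pair of genes passed the adjusted p of 0.001 without reaching 1.5-fold. 14-3-3epsilon, which encodes a protein that holds phosphorylated Yorkie in the cytoplasm, had 4942 and 5715 normalised counts in M1BP RNAi, against 7356, 7860 and 7820 in WT (log2 fold change −0.53, SE 0.106, DESeq2 adjusted p = 1.19e-05). It was called at −0.63 without M1BP RNAi replicate 3, and had an adjusted p of 0.111 without replicate 2.

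Trl, which encodes GAGA factor, had 4134 and 4012 normalised counts in M1BP RNAi, against 5059, 5359 and 5744 in WT (log2 fold change −0.40, SE 0.0949, DESeq2 adjusted p = 2.93e-04). It shares 4441 bases, 71.0% of its exon length, with CG42507 on the same strand, so its value is uncertain. Wbp2, a WW-domain-binding co-factor of Yorkie, had 729 and 795 normalised counts in M1BP RNAi, against 987, 959 and 895 in WT (log2 fold change −0.31, adjusted p = 0.0472). vg, the muscle and wing partner of Scalloped, had 4879 and 4348 normalised counts in M1BP RNAi, against 4268, 5094 and 5392 in WT, and these overlapped.

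Among 16 growth targets of Yorkie known from imaginal discs, 1 fell, 0 rose and 15 did not pass. vn, which encodes the EGF receptor ligand Vein, had 953 and 946 normalised counts in M1BP RNAi, against 1526, 1444 and 1658 in WT. Its log2 fold change was −0.70 (SE 0.117, DESeq2 adjusted p = 6.03e-08), and the adjusted p was 0.0122 with edgeR and 0.00164 to 0.0153 without WT replicate 1 or without either M1BP RNAi library. Ser, a Notch ligand, had 343 and 346 normalised counts in M1BP RNAi, against 566, 869 and 452 in WT (log2 fold change −0.87, adjusted p = 0.0465, or −0.58 with an adjusted p of 0.145 without WT replicate 2). dlp, a glypican, had 415 and 449 in M1BP RNAi, against 556, 918 and 650 in WT (log2 fold change −0.71, adjusted p = 0.0479).

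Other targets went either way or overlapped. The lowest value of the list, that of wg, came from few counts. wg had 16.8 and 24.5 normalised counts in M1BP RNAi, against 108, 131 and 21.3 in WT. These overlapped (log2 fold change −2.07, DESeq2 adjusted p = 0.0730). Diap1, the inhibitor of apoptosis used as a reporter of Yorkie in discs, had 11965 and 9363 normalised counts in M1BP RNAi, against 6177, 9034 and 8040 in WT, so both M1BP RNAi libraries were above WT, without passing the test (log2 fold change 0.46, SE 0.215, DESeq2 adjusted p = 0.104). The growth regulators Myc and CycE had log2 fold changes of −0.38 and −0.43 (DESeq2 adjusted p = 0.246 and 0.364), and Myc shares 20.3% of its exon length with a non-coding gene on its strand. The median of the list was −0.41, and −0.08 without M1BP RNAi replicate 2. Mer and kibra belong to this list as well, and ex, fj and crb also to the upstream list.

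**Figure D5:**
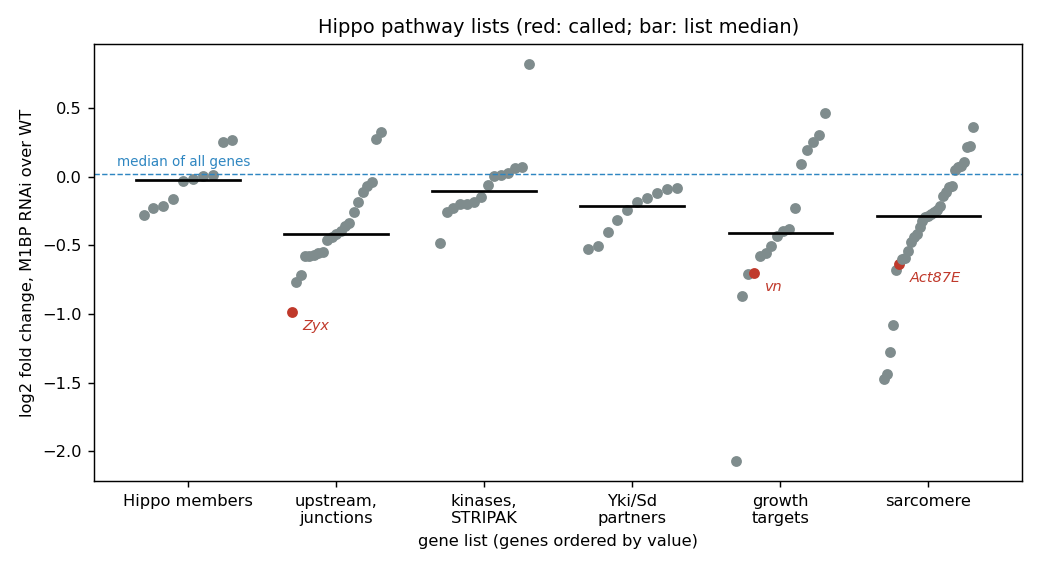
Log2 fold change of each gene, M1BP RNAi over WT (y axis), in the Hippo members and 5 further lists (x axis), with the list median as a bar, the median of all genes as a dashed line and called genes in red. The called genes are Zyx, vn and Act87E, all lower in M1BP RNAi, and no Hippo member is among them.

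Sarcomere genes were examined last, in a list not limited to genes particular to flight muscle. Of 31 genes, 1 fell, 0 rose and 30 did not pass, 24 of 31 log2 fold changes were below 0 and the median was −0.28, or −0.15 without M1BP RNAi replicate 2. The lowest values, of Mlp84B (−1.47), Strn-Mlck (−1.43), TpnC41C (−1.28) and Act57B (−1.08), were not called. Their DESeq2 adjusted p were 0.0174 for Mlp84B and 0.0243 for Act57B, and 0.154 for Strn-Mlck and 0.362 for TpnC41C. TpnC41C differed between the M1BP RNAi libraries, with 491 normalised counts in replicate 2 and 3880 in replicate 3. Act87E, a muscle actin, had 10261 and 10236 normalised counts in M1BP RNAi, against 15470, 14106 and 18164 in WT (log2 fold change −0.63, SE 0.140, DESeq2 adjusted p = 9.58e-05). It was not called without WT replicate 1, WT replicate 3 or either M1BP RNAi library, nor with edgeR (adjusted p = 0.0382).

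Mlp60A, a muscle LIM protein, had 130742 and 144626 normalised counts in M1BP RNAi, against 229347, 176036 and 218559 in WT, and Mf, myofilin of the thick filament, had 3980 and 5045 in M1BP RNAi, against 7584, 6160 and 7904 in WT. Both were lower in each M1BP RNAi library than in every WT library and both missed the call, at log2 fold changes of −0.60 and −0.68 (DESeq2 adjusted p = 0.00107 and 0.00175). They were called at −0.71 and −0.79 without WT replicate 2, the WT library with the fewest flight muscle marker counts, and were at −0.51 and −0.50 (adjusted p = 0.166 and 0.178) without M1BP RNAi replicate 2. With lncRNA:roX1 as a covariate they were at −0.43 and −0.56. The flight muscle actin Act88F had 616104 and 635906 normalised counts in M1BP RNAi, against 729957, 577702 and 768237 in WT, and the groups overlapped (log2 fold change −0.14, SE 0.154). Summed flight muscle markers varied among WT libraries by as much as between the groups, and their part in the values of this list was not tested.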

How the data were processed

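The authors deposited whole-number counts per gene, made, per the file headers and the submitters' processing notes, from reads aligned uniquely to dm6 and counted over exons with featureCounts of Subread 2.0.3. The aligner, annotation release and strand setting are not given in the sources used here. Per the labels, a stranded poly(A) kit was used on 100 ng of RNA per library, with 13 PCR cycles. The exon length of each gene and, in a second deposited table, the symbols were other values used, and the authors' own fold changes and p-values in that table were not used. All 5 count columns matched a library. fln shares 801 of the 1034 exon bases of the antisense gene asRNA:CR45161, yet these had 464800 and 1987 counts in all, so counting followed the strand, whereas Lasp and CG43954, which share all 4413 exon bases on the same strand, had equal counts in 5 of 5 libraries, so shared reads were counted for both. Among the members, sav shares 73 bases with CG17119 on its own strand.

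The members and lists were chosen with earlier results of these data known. In R 4.3.3, DESeq2 1.42.0 (Wald test, default settings, no covariate) was fitted to all 17494 genes in 5 libraries, with Benjamini-Hochberg adjustment over the 11282 genes given an adjusted p, and unshrunken fold changes set M1BP RNAi over WT on the log2 scale. Intervals are 95% normal intervals from the SE. Gene spans are those of the counts table, counted from 1, and the supplied annotation gave the same span for 10 of 10 members. Named genes were the members, M1BP, and in each further list the called genes and those with the smallest p up to 3. Others in the text (ft, ds, Tao, vg, 14-3-3zeta, Diap1, Myc, CycE, wg, Act88F, Mlp84B, Strn-Mlck, TpnC41C, Act57B and overlapping genes) were chosen after their values were seen. Ratios of TPM and the test for a difference under 1.5-fold were likewise added. Scripts were tested on simulated data. Alternatives were edgeR 4.0.16 (quasi-likelihood, TMM), TMM size factors, a minimum of 10 counts in 2 libraries, DESeq2 without independent filtering, DESeq2 without its filter on Cook's distance, mitochondrial genes left out, looser thresholds, the replicate number as a block, lncRNA:roX1 as a covariate, and each library left out. Replicates were compared by chi-square over genes (99.5 to 139 per degree of freedom), so none was a duplicate. With 1 M1BP RNAi library left, its spread was assumed to equal that of WT.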

Additional observations from a re-analysis of the deposited data

How the results depend on the processing

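The 10 members gave 130 log2 fold changes under 13 alternative fits, of which 118 kept the direction of the reported value and 0 passed the call, and 0 members were called under any alternative. The values that changed sign were close to 0: yki was at −0.068 with the replicate block, −0.12 with lncRNA:roX1 as a covariate and −0.071 to 0.039 when 1 library was left out, Dlg5 was at 0.0087 with the block, 0.0049 with the covariate and −0.064 to 0.026 when 1 was left out, and hpo and Slmap ranged from −0.082 to 0.023 and from −0.075 to 0.11 when 1 was left out. Members held within 1.5-fold numbered 0 with the block, 1 with the covariate and 0 to 8 when 1 library was left out. The upstream list had 0 called genes with edgeR, 3 at an adjusted p of 0.05 with no fold minimum, and 1 to 3 when 1 library was left out. The kinase list had 1 at 0.05 with no fold minimum. The partners had 3 at 0.05 and 2 at 0.001 with no fold minimum, and 0 to 1 when 1 library was left out. The growth targets had 0 with edgeR, the block or the covariate, 3 at 0.05 with or without the fold minimum, and 0 to 2 when 1 was left out. The sarcomere list had 0 with edgeR or the covariate, 3 with the block, 6 at 0.05 with the fold minimum and 7 without it, and 0 to 3 when 1 was left out. Over all genes, 762 were called, 8 with edgeR, 315 with the block and 302 with the covariate, 319 without M1BP RNAi replicate 2 and 491 without WT replicate 2, 1799 at 0.05 with the fold minimum and 2750 without it. The cause of these differences was not tested. mats and wts exchanged the places 9 and 10 when normalised counts per kb replaced TPM.

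Labels give both groups replicates 2 and 3 but do not say that a number marks a shared batch. Deviations from the group means correlated at −0.30 for number 2 and −0.08 for number 3. With 2 M1BP RNAi libraries their deviations mirror each other, so these values cannot decide whether the numbers mark pairs. The main fit took no pairs, and the replicate block is among the alternatives. Each member had at least 505 counts in every library. The search for Motif 1 in promoters was not run, since no promoter sequence was used here.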
